A study of Mus musculus with 18 samples.

Results

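The 10 genes followed here belong to the MHC class I presentation pathway and were measured in donor T cells recovered from mouse spleen after transplantation. The members are the heavy chains H2-K1 and H2-D1, their light chain B2m, the peptide transporter subunits Tap1 and Tap2, the loading factor Tapbp, the transactivator Nlrc5, and the immunoproteasome subunits Psmb8, Psmb9 and Psmb10. They were taken by gene symbol from a list, and all 10 were found among the 46073 genes of the count table. All 10 also passed the filter on low counts, which kept 18447 genes, and none was at 0 in any library. The rule that picks them is a list of names and holds no measured value, though the list was made with earlier results of these data known.

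MHC class I molecules display peptides from inside the cell to CD8 T cells and are ligands of receptors on natural killer cells. Proteasomes cut proteins into peptides, the TAP transporter pumps these into the endoplasmic reticulum, and tapasin, encoded by Tapbp, holds empty heavy chains with their light chain at the transporter until a peptide binds. Interferon gamma is the best known inducer of the pathway: it acts through IRF1 and through NLRC5, and it replaces the constitutive catalytic subunits of the proteasome by the immunosubunits. In lymphocytes the whole set is already active at rest.

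RNA was sequenced from donor T cells in 4 groups of 3 libraries, all taken on day 7 after haematopoietic stem cell transplantation. The donors were C57BL/6 (H-2b, CD45.2), with Wapl knocked out (KO) or intact (WT). WAPL releases cohesin, the ring complex that forms chromatin loops, from DNA. The groups are called allo KO, allo WT, syn KO and syn WT. Allogeneic recipients received 8 Gy and 1000000 donor T cells. Syngeneic recipients received 9.5 Gy and 8500000 donor T cells. All received 5000000 T cell depleted marrow cells. Purchased donors and recipients were female and 8 to 12 weeks old, per the protocol in the labels. Radiation dose, T cell dose and recipient strain therefore change together with the setting and cannot be told apart from it. Spleens of 2 to 4 mice were pooled for each library, and live CD3+ CD45.2+ cells were sorted. The protocol gives both recipient strains as CD45.1, so such recipient cells would lie outside the gate. BALB/c mice, which the sample labels name, carry CD45.2 and would not be gated out. The protocol gives the syngeneic recipients as H-2b and the allogeneic ones as H-2d. The labels name B6.SJL-Ptprca Pepcb/BoyJ recipients for syn WT and BALB/c for both allogeneic groups. For syn KO they say syngeneic but name CByJ.SJL(B6)-Ptprca/J, which the protocol gives as the allogeneic strain. These libraries were grouped by transplant type, so each comparison with syn KO rests on that label. The Cre line and the deleted exons are not named in the labels.

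The libraries held 45965659 to 89007100 counts. Values below are counts-per-million (CPM), scaled by the TMM method of edgeR. Wapl, counted over the whole gene, had 145, 124 and 151 CPM in allo KO against 169, 156 and 158 CPM in allo WT, and 127, 139 and 137 CPM in syn KO against 170, 211 and 183 CPM in syn WT. It was lower in every KO library than in any WT library of the same setting, by log2 fold changes of −0.20 ± 0.11 (SE, adjusted p = 0.963, edgeR) in allo and −0.48 ± 0.11 (adjusted p = 0.0368) in syn. T cell markers were high in every library: the 14 genes of that list summed to 6458 to 9197 CPM in allo KO, 6470 to 7009 in allo WT, 5773 to 8794 in syn KO and 5329 to 6784 in syn WT. The sum of 11 red cell genes was 57.0 to 69.3 CPM in allo KO, 41.0 to 94.9 in allo WT, 76.5 to 175 in syn KO, but 2298 to 5310 in syn WT. The sum of 16 myeloid genes was 235 to 392, 371 to 593, 58.1 to 383 and 277 to 817 CPM in the same order. That of 12 B cell genes was 473 to 3245, 1247 to 1863, 544 to 2810 and 579 to 1128 CPM, nearly all of it from Ighm and Igkc. The part of these other cell types in the members' values was not tested. In bulk RNA, fewer cells of a type and less RNA per cell cannot be told apart. The sum of 4 Y-linked genes was 31.4 to 138 CPM in the KO libraries against 0.733 to 1.75 CPM in the WT libraries, so Y-linked expression differs with genotype although the protocol speaks of female donors, and its part in a difference between KO and WT cannot be told apart from that of Wapl.

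Some libraries stood apart. Replicate 1 of syn KO had the highest share of ribosomal RNA, 27.6% of counts against 6.7 to 20.7% in the others, and lay far from the rest on the second principal component (63.5, against −33.2 to 25.4). Libraries also differed in the balance of short and long genes. An index of this, the mean log2 deviation of 909 genes with principal transcripts under 1000 bases minus that of 2537 genes over 5000 bases, was 0.102, 0.692 and −0.153 in allo KO, 0.245, −0.052 and −0.026 in allo WT, 0.294, −0.196 and −0.168 in syn KO, and −0.168, −0.347 and −0.222 in syn WT. The index was thus higher in all 3 allo WT libraries than in any syn WT library, and replicate 2 of allo KO was the most extreme. The main differences that rest on these libraries are given with and without them below.

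Most members lie in the MHC on chromosome 17: in GENCODE M21 (GRCm38), 7 of 10 are there, with B2m on chromosome 2 and Nlrc5 and Psmb10 on chromosome 8. Psmb9, Tap1, Psmb8 and Tap2 lie side by side within 34335 bases (chr17:34181987-34216321). Psmb9 and Tap1 are transcribed away from each other from overlapping starts, and their annotated exons share 212 bases on opposite strands. RefSeq promoters (GRCm38.p6, 250 bases before to 50 after the start) were found for 8 members, all but Tap2 and Nlrc5. They were searched on both strands for letters that stand for elements long known in class I promoters. GAANNGAAA stands for a form of the interferon response element. GGG, 2 open bases, TT, 1 open base and CC stand for the kappa B element bound by NF-kappa B. TGACG stands for the short site bound by CREB and ATF factors, and CCAAT for the box bound by NF-Y. No motif overlapped another in the windows shown. The windows of H2-D1, H2-K1, B2m and Tap1 are printed because these genes differed most in how they compared between the transplant settings; capitals mark the matches, in either orientation.
H2-D1: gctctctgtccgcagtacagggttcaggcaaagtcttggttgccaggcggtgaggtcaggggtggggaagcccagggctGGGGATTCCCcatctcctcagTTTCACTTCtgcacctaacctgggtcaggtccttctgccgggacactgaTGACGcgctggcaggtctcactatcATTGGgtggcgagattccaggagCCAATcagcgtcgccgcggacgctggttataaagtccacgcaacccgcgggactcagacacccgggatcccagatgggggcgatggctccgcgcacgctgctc
H2-K1: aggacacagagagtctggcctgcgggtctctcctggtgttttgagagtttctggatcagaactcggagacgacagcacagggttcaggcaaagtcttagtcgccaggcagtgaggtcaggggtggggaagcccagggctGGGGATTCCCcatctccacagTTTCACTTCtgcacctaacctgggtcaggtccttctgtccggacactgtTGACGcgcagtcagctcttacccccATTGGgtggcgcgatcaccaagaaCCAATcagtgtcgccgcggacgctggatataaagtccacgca
B2m: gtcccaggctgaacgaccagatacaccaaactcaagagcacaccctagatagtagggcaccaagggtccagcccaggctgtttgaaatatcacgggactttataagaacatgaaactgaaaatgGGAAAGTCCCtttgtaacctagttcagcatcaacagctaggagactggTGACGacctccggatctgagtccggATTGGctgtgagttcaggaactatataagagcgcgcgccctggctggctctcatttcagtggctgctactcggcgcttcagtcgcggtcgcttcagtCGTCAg
Tap1: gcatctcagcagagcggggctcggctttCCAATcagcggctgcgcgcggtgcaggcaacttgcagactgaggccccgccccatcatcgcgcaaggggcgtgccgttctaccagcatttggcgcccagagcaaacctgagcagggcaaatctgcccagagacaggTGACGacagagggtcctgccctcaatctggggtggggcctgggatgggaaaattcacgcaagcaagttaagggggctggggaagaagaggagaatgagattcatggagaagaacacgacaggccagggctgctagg

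These windows are chr17:35262844-35263143 on the plus strand (H2-D1), chr17:34000298-34000597 on the minus strand (H2-K1), chr2:122147437-122147736 on the plus strand (B2m) and chr17:34187306-34187605 on the plus strand (Tap1). The H2-D1 and H2-K1 windows share 211 of 239 aligned bases (88.3%), and all 4 motifs stand in the same order in both. In H2-D1 the interferon element spans positions −150 to −142 and the kappa B element −171 to −162 from the RefSeq start, which lies 364 bases inside the GENCODE start. In H2-K1 they span −90 to −82 and −111 to −102. These distances depend on the annotated starts, since the windows align. The CCAAT letters stand at −53 to −49 in H2-D1 but at 9 to 13, after the start, in H2-K1. Which starts these cells use was not tested. The interferon letters occur in 7.51% of 32841 RefSeq promoters and in these 2 of the 8 member windows. They fix the spacing, so a form with wider spacing is not counted, such as gaaactgaaa in the B2m window. Their absence from a window therefore does not mean that it lacks such an element. The kappa B letters occur in 4.80% of promoters and in H2-K1, H2-D1 and B2m. TGACG occurs in 20.8% of promoters and in 5 member windows, those 3 with Tap1 and Psmb9, and CCAAT in 37.4% and in 6 member windows, the 5 and Tapbp. All 4 motifs together were found in 16 promoters (0.0487%), H2-K1 and H2-D1 among them. The windows of Tap1 and Psmb9 share 275 bases, so their matches are not separate. No match stood in the windows of Psmb8 and Psmb10. A match describes the letters only.

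The heavy chains bind the peptide. H2-D1 had 1731, 2194 and 1450 CPM in allo KO, 1925, 1762 and 1658 CPM in allo WT, 1688, 1131 and 1090 CPM in syn KO, and 1255, 934 and 1038 CPM in syn WT. All 3 allo WT libraries were above all 3 syn WT libraries, while allo KO and syn KO overlapped because of replicate 1 of syn KO. H2-K1 had 1810, 2087 and 1561 CPM in allo KO, 1844, 1891 and 1864 CPM in allo WT, 2203, 1729 and 1553 CPM in syn KO, and 1949, 1429 and 1612 CPM in syn WT. Every pair of H2-K1 groups overlapped, and its highest and lowest libraries differed by only 1.54-fold. B2m, the light chain that all classical class I molecules share, had 1348, 1685 and 1188 CPM in allo KO, 1405, 1200 and 1264 CPM in allo WT, 1878, 1214 and 1090 CPM in syn KO, and 1341, 1098 and 1112 CPM in syn WT. Its groups overlapped too, with the highest value in replicate 1 of syn KO and the next in replicate 2 of allo KO.

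The transporter subunits moved together. Tap1 had 454, 470 and 427 CPM in allo KO, 478, 476 and 435 CPM in allo WT, 408, 342 and 296 CPM in syn KO, and 332, 258 and 295 CPM in syn WT. It was the member whose 6 allogeneic libraries all lay above the 6 syngeneic libraries. Tap2 had 211, 206 and 184 CPM in allo KO, 207, 204 and 187 CPM in allo WT, 184, 153 and 128 CPM in syn KO, and 154, 119 and 129 CPM in syn WT. The lowest allo KO library and the highest syn KO library of Tap2 met at 184 CPM. Tapbp had 502, 457 and 408 CPM in allo KO, 535, 489 and 460 CPM in allo WT, 561, 427 and 368 CPM in syn KO, and 441, 335 and 381 CPM in syn WT. Its allo WT libraries were above its syn WT libraries, and its KO groups overlapped.

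The immunosubunits had the widest ranges over the 12 libraries, 2.41-fold to 2.95-fold from the lowest to the highest. Psmb8 had 401, 523 and 300 CPM in allo KO, 414, 333 and 326 CPM in allo WT, 490, 329 and 286 CPM in syn KO, and 315, 217 and 256 CPM in syn WT. Psmb9 had 167, 250 and 134 CPM in allo KO, 153, 131 and 143 CPM in allo WT, 194, 120 and 109 CPM in syn KO, and 113, 84.8 and 104 CPM in syn WT. For both, the allo WT libraries were above the syn WT libraries and the KO groups overlapped. Psmb10 had 126, 185 and 99.2 CPM in allo KO, 147, 116 and 110 CPM in allo WT, 199, 117 and 97.2 CPM in syn KO, and 122, 80.9 and 100 CPM in syn WT. Its groups overlapped in every comparison. The coefficient of variation of Psmb10 was 32.2% in allo KO and 15.8% in allo WT, and 39.3% in syn KO and 20.6% in syn WT. Psmb9 ranged the most of the 10 members, with replicate 2 of allo KO highest and replicate 2 of syn WT lowest.

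Nlrc5, the transactivator of class I genes, averaged lower in both allogeneic groups than in both syngeneic groups. It was not called in any comparison with all libraries kept. It had 292, 253 and 451 CPM in allo KO, 271, 410 and 409 CPM in allo WT, 335, 473 and 381 CPM in syn KO, and 475, 402 and 431 CPM in syn WT. All its groups overlapped. Replicate 1 of syn KO, the highest of its group for the 9 other members, was the lowest for Nlrc5, and replicate 2 of allo KO, the highest of its group for 7 members, was the lowest for Nlrc5 as well. In syn WT, replicate 1 was the highest and replicate 2 the lowest library for all 10 members, Nlrc5 included.

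**Figure D1:**
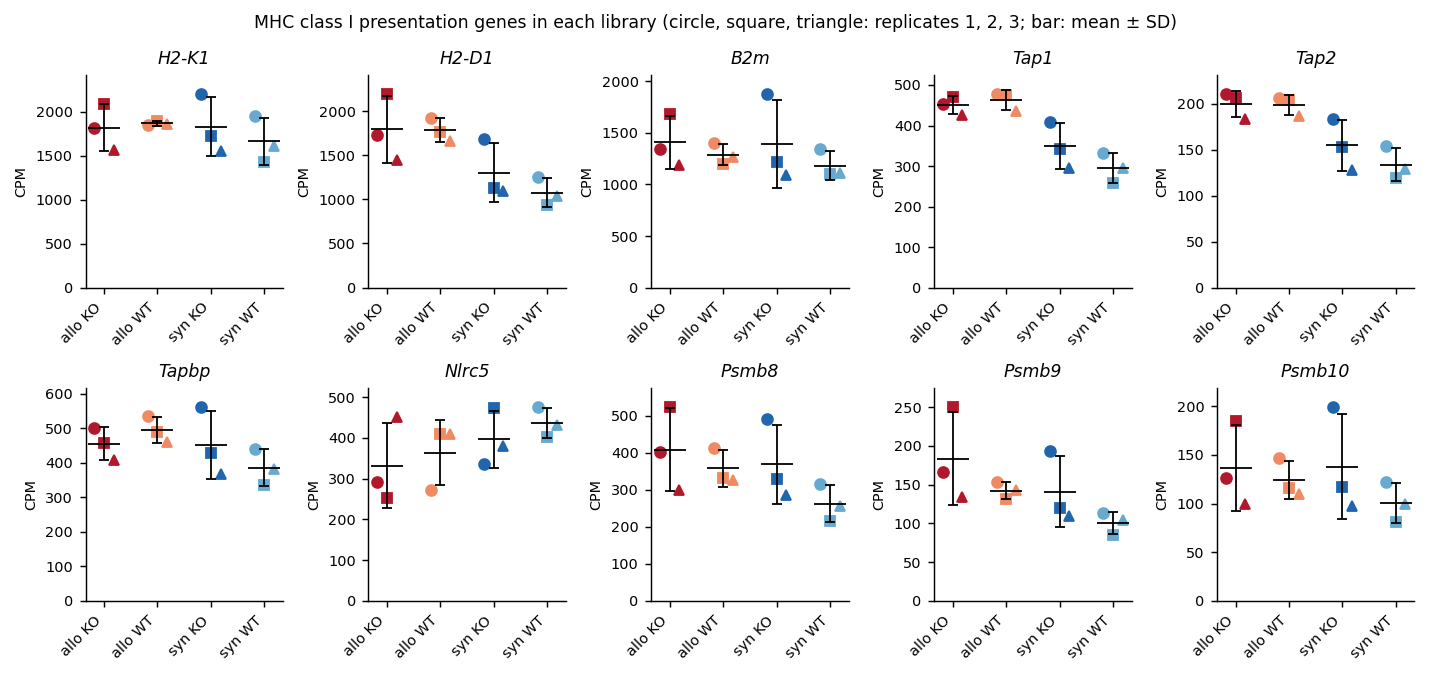
CPM (vertical axes, from 0) of the 10 members in the 3 libraries of allo KO, allo WT, syn KO and syn WT, with circles, squares and triangles for replicates 1, 2 and 3 and bars for the mean ± SD. Tap1 is above all syngeneic libraries in each allogeneic library, H2-K1 overlaps throughout, and replicate 1 of syn KO is high for 9 members and low for Nlrc5.

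Between genes, levels can be compared only per length. Per kilobase of the principal transcript, B2m was highest in all 4 groups, at 1636 ± 295 CPM per kb in allo KO, 1500 ± 122 in allo WT, 1621 ± 493 in syn KO and 1376 ± 158 in syn WT (SD, n = 3). H2-K1 came next (1124, 1153, 1129 and 1027 CPM per kb in the same order), then H2-D1 (852, 848, 620 and 512 CPM per kb). Psmb8 stood at 161 to 251, Tapbp at 133 to 171 and Tap1 at 99.8 to 157 CPM per kb over the group means. Tap2, at 38.9 to 58.2, and Nlrc5, at 43.8 to 57.5 CPM per kb, were the lowest members. With all annotated exons as the length, H2-D1 passed H2-K1 in the allogeneic groups (695 against 619 CPM per kb in allo KO, and 691 against 635 in allo WT). Psmb9 was then below Tap2 in all 4 groups and the lowest member in all but allo KO, at 27.5 CPM per kb in syn WT, and Tapbp passed Psmb8, so these orders depend on the length used. Reads of these genes can be shared: 14.3% of the 50-base windows of the H2-D1 transcript and 8.79% of those of H2-K1 also occur in transcripts of other genes, mainly other class I heavy chains. For Psmb9 12.5% occur in Tap1, for Tapbp 21.0% in other genes, mainly its antisense gene Gm19412 and for Tap2 9.90% in the antisense gene Gm15821. For B2m, Nlrc5 and Psmb10 none did. How the authors counted such reads, and whether by strand, is not given in the sources used here.

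The first comparison asked how the allogeneic setting differs from the syngeneic one in T cells with intact Wapl. Here 3 of the 10 members rose and none fell, against 32.3% of all genes called in either direction and 16.4% called higher. Tap1 averaged 463 ± 24.3 CPM in allo WT and 295 ± 36.9 CPM in syn WT (SD, n = 3 each), a log2 fold change of 0.65 ± 0.14 (SE, adjusted p = 0.0032, edgeR quasi-likelihood test). Tap2 averaged 200 ± 10.8 CPM in allo WT and 134 ± 18.3 CPM in syn WT, a log2 fold change of 0.57 ± 0.14 (adjusted p = 0.00821, edgeR). H2-D1 averaged 1782 ± 135 CPM in allo WT and 1076 ± 164 CPM in syn WT, a log2 fold change of 0.73 ± 0.20 (adjusted p = 0.0155, edgeR). The other class I heavy chain, H2-K1, differed by 0.17 ± 0.17 (adjusted p = 0.487) and B2m by 0.12 ± 0.20 (adjusted p = 0.671).

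Of the 10 members, 6 had no overlap between allo WT and syn WT, all higher in allo WT, which 28.2% of genes also showed. Besides the 3 called they were Tapbp (0.36 ± 0.16, adjusted p = 0.112), Psmb8 (0.45 ± 0.23, adjusted p = 0.163) and Psmb9 (0.50 ± 0.24, adjusted p = 0.13, edgeR). Psmb10 differed by 0.30 ± 0.28 (adjusted p = 0.434) and Nlrc5 by −0.26 ± 0.22 (adjusted p = 0.387). The median over the members was 0.40 on the log2 scale, against −0.03 over all tested genes. It was 0.46 for the constitutive catalytic subunits, 0.43 for the other genes of the proteasome core (20S) and 0.36 for T cell genes. It was 0.32 for the 19S regulatory particle, 0.25 for loading and trimming genes, 0.12 for regulators, 0.09 for proteasome activators and assembly genes and 0.02 for other class I heavy chains. Tap1 and Tap2 kept their calls without any single library. H2-D1 lost its call without replicate 2 of syn WT (0.64, adjusted p = 0.0735), without replicate 3 of syn WT (0.70, adjusted p = 0.0579) and without replicate 1 of allo WT (0.67, adjusted p = 0.0531, edgeR). A fit of the 6 WT libraries alone called 6 members, Tapbp, Psmb8 and Psmb9 in addition, where it called 43.9% of all genes. Markers of other cells moved with this comparison. All 11 red cell genes fell in allo WT, 5 of 12 B cell genes fell and none rose, 1 of 16 myeloid genes rose and 6 fell, and 2 of 9 NK cell genes rose and 4 fell. The B cell sum, nearly all of it Ighm and Igkc, which were not called, was higher in allo WT. Of 11 genes of class II presentation 2 fell and none rose, and of 14 T cell genes 3 rose and 1 fell. The part of these in the members' differences was not tested.

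The same comparison in KO cells called none of the 10 members, against 24.4% of all genes. Among markers of other cells, 3 of 16 myeloid genes rose and none fell, 3 of 9 NK cell genes rose and 4 fell, 1 of 12 B cell genes rose and 2 fell, and 2 of 11 red cell genes fell. Of 11 genes of class II presentation 4 rose and 2 fell, and the part of these in the members' values was not tested. Without adjustment, 3 members (Tap1, Tap2 and H2-D1) passed 0.05 in edgeR, as did 37.0% of genes. DESeq2 called Tap1 and Tap2, where it called 25.6% of genes. Tap1 averaged 450 ± 21.4 CPM in allo KO and 349 ± 56.4 CPM in syn KO (SD, n = 3 each), a log2 fold change of 0.37 ± 0.14 (adjusted p = 0.0694, edgeR). Its groups did not overlap, which held in the same direction for 17.0% of genes and for no other member. Tap2 averaged 200 ± 14.8 CPM in allo KO and 155 ± 28.1 CPM in syn KO, with 0.37 ± 0.14 (adjusted p = 0.0747), and H2-D1 1791 ± 376 CPM in allo KO and 1303 ± 334 CPM in syn KO, with 0.46 ± 0.20 (adjusted p = 0.118, edgeR). H2-K1 (−0.01 ± 0.17), B2m (0.01 ± 0.20), Tapbp (0.01 ± 0.16) and Psmb10 (−0.01 ± 0.28) stood near 0, with adjusted p of 0.971 to 0.99. Psmb8 differed by 0.15 ± 0.23, Psmb9 by 0.39 ± 0.24 and Nlrc5 by −0.25 ± 0.22. The median over the members was 0.08, against −0.02 over all genes.

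Of the fits that left out 1 library, the one without replicate 1 of syn KO called the most members. In it 4 members were called, where 28.6% of genes were: H2-D1 at 0.73 ± 0.19 (adjusted p = 0.0121), Psmb9 at 0.73 ± 0.22 (adjusted p = 0.0255), Tap1 at 0.54 ± 0.13 (adjusted p = 0.0105) and Tap2 at 0.55 ± 0.13 (adjusted p = 0.00939, edgeR). With all libraries kept, removing ribosomal RNA genes called Tap1 (adjusted p = 0.0478, edgeR), where 25.3% of genes were called. Over both genotypes together, a comparison added after the data were seen, 4 members rose where 46.4% of genes were called and 23.2% called higher: Tap1 by 0.51 ± 0.10 (adjusted p = 0.00102), Tap2 by 0.47 ± 0.10 (adjusted p = 0.00211), H2-D1 by 0.59 ± 0.14 (adjusted p = 0.00477) and Psmb9 by 0.44 ± 0.17 (adjusted p = 0.0485, edgeR). All 6 allogeneic libraries of Tap1 lay above all 6 syngeneic ones, which held in the same direction for 12.4% of genes and for no other member. Tap1, Tap2 and H2-D1 stayed called under all 19 alternatives run for this comparison, and Psmb9 lost its call under 12 of them. Among these were 9 fits that left out 1 library, all but those without replicate 1 of syn KO, replicate 1 of syn WT or replicate 3 of allo KO, with an adjusted p of up to 0.11. Without replicate 1 of syn KO, Psmb8 and Tapbp rose too (6 members, where 50.2% of genes were called), and without replicate 3 of allo KO, Nlrc5 fell in addition to the 4 that rose (49.8% of genes).

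**Figure D2:**
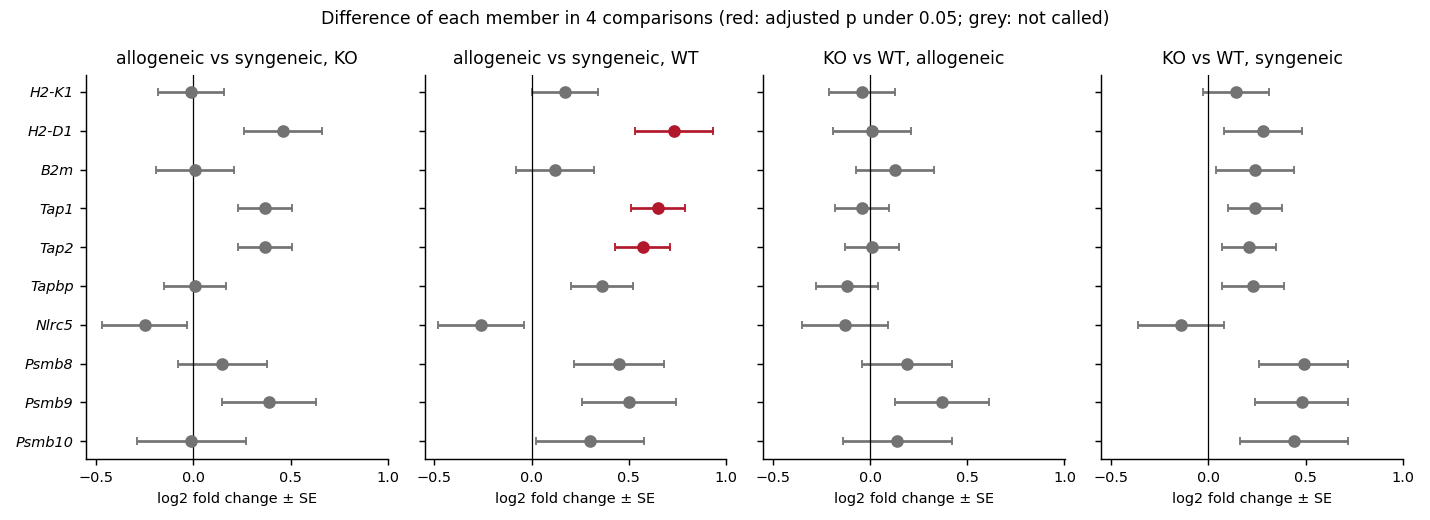
Log2 fold change ± SE (horizontal axis) of each member in 4 comparisons: allo against syn in KO and in WT, and KO against WT in allo and in syn. Red points have an adjusted p under 0.05 over all genes: Tap1, Tap2 and H2-D1 in the WT comparison of settings, and no member in the other 3 panels.

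Loss of Wapl was compared within each setting. In syn, none of the 10 members was called (3.37% of genes were), by edgeR or by DESeq2, and none had an unadjusted p under 0.05 in edgeR, which 14.0% of genes had. All 10 overlapped between syn KO and syn WT, whereas 23.3% of genes did not. The largest differences were Psmb8 with 368 ± 107 CPM in syn KO and 263 ± 49.2 CPM in syn WT (0.49 ± 0.23, adjusted p = 0.373), Psmb9 with 141 ± 46 and 101 ± 14.6 CPM in syn KO and syn WT (0.48 ± 0.24, adjusted p = 0.389), and Psmb10 with 138 ± 54.1 and 101 ± 20.8 CPM (0.44 ± 0.28, adjusted p = 0.495, edgeR). Of the marker lists, 10 of 11 red cell genes and 7 of 16 myeloid genes fell in syn KO. So did 3 of 11 genes of class II presentation and 1 of 12 B cell genes, and no gene of these lists rose. Their part in the members' values was not tested. The fold changes of 9 members were above 0 and Nlrc5 was at −0.14 ± 0.22, with a median of 0.24 against 0.06 over all genes. Of all 18447 tested genes, 10516 were above 0. The median was 0.29 for T cell genes, 0.25 for loading and trimming genes and 0.26 to 0.45 over the lists of other proteasome genes. It was 0.09 for regulators and 0.06 for other class I heavy chains. Without replicate 1 of syn KO the members' differences were much smaller. Psmb8 then stood at 0.20, Psmb9 at 0.16, Psmb10 at 0.05, H2-D1 at 0.02, Tap1 at 0.08, Tap2 at 0.04 and Tapbp at 0.01, while B2m was at −0.07, Nlrc5 at −0.06 and H2-K1 at −0.05. Same-numbered syn libraries deviated together (r = 0.187 to 0.588), but so did replicate 3 of syn KO and replicate 2 of syn WT (r = 0.463). A fit of the 6 syn libraries with the replicate number as a block called Psmb8 alone of the members (0.43 ± 0.11, adjusted p = 0.049, edgeR). It called 7.29% of genes.

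In allo, none of the 10 members was called either, where 0.0542% of genes were. By DESeq2 the count was also 0, and edgeR gave none an unadjusted p under 0.05, against 4.18% of genes. All 10 overlapped between allo KO and allo WT, against 7.66% of genes that did not overlap. The differences ran from −0.13 ± 0.22 for Nlrc5 to 0.37 ± 0.24 for Psmb9, which stood at 0.07 without replicate 2 of allo KO and at 0.13 with the length index, with a median of 0.01 against 0.03 over all genes. H2-D1 averaged 1791 ± 376 CPM in allo KO and 1782 ± 135 CPM in allo WT, and Tap2 200 ± 14.8 and 200 ± 10.8 CPM in allo KO and allo WT. With standard errors of 0.14 to 0.28 on the log2 scale, small differences were not detectable. Without replicate 2 of allo KO, B2m (−0.04), H2-D1 (−0.18), Tap2 (−0.03), Psmb8 (−0.04) and Psmb10 (−0.16) changed sign to below 0, and Nlrc5 (0.02) to above 0. The test of whether the setting's effect differed between KO and WT cells called no member (0.477% of genes were called), with no unadjusted p under 0.05 (6.2% of genes had one) and none called by DESeq2. The difference of the 2 effects ran from −0.35 for Tapbp to 0.01 for Nlrc5, below 0 for 9 members, with a smallest unadjusted p of 0.157 and standard errors of 0.20 to 0.39. Of all 18447 tested genes, 8498 were above 0. So were 3 of 14 T cell genes and 2 of 18 genes of the proteasome's 19S particle, but 7 of 11 class II genes.

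The ratio of H2-D1 to H2-K1 within each library is given as a description only, with no test, since the pair was chosen after its values were seen. The ratio of H2-D1 to H2-K1 counts was 0.889 to 1.05 in the 6 allogeneic libraries and 0.644 to 0.766 in the 6 syngeneic libraries. On the log2 scale it averaged −0.03 ± 0.09 in allo KO and −0.50 ± 0.11 in syn KO (SD, n = 3 each), a difference of 0.47. In allo WT it averaged −0.07 ± 0.12 and in syn WT −0.63 ± 0.01, a difference of 0.56. In syn KO the ratio was 0.766, 0.654 and 0.702, and in syn WT 0.644, 0.654 and 0.644, so that replicate 2 had the same rounded value in both. That difference was 0.13, or 0.07 to 0.18 without any 1 library, and the one between allo KO and allo WT was 0.04. Without any 1 library, the difference between settings ran from 0.41 to 0.53 in KO and from 0.49 to 0.61 in WT. The protocol gives the donors' H-2b and the allogeneic recipients' H-2d as different. Any recipient cells in the gate would thus add reads of other class I alleles in the allogeneic groups. They would do so in syn KO too, if its recipients were of the strain that its labels name. Their part in this ratio and in the H2-D1 call was not tested.

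The immunosubunits were also set against the constitutive subunits that they replace, Psmb5 for Psmb8, Psmb6 for Psmb9 and Psmb7 for Psmb10. With 3 against 3 libraries no such test can go below p = 0.1 (exact permutation). The Psmb8 to Psmb5 ratio was 3.76 to 4.57 in allogeneic and 4.18 to 4.56 in syngeneic libraries, and the Psmb9 to Psmb6 ratio 1.40 to 1.85 in allogeneic and 1.43 to 1.70 in syngeneic libraries. Their groups overlapped in all comparisons. The Psmb10 to Psmb7 ratio was 1.14 to 1.39 in allogeneic and 1.25 to 1.89 in syngeneic libraries. Its log2 value averaged 0.27 ± 0.08 in allo KO and 0.65 ± 0.23 in syn KO with no overlap (exact permutation p = 0.1, or 0.686 adjusted over 12 ratio tests). Psmb5, Psmb6 and Psmb7 themselves differed between allo WT and syn WT by 0.45 ± 0.26, 0.46 ± 0.23 and 0.50 ± 0.22 (adjusted p of 0.103 to 0.206, edgeR), beside 0.45 for Psmb8, 0.50 for Psmb9 and 0.30 for Psmb10.

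**Figure D3:**
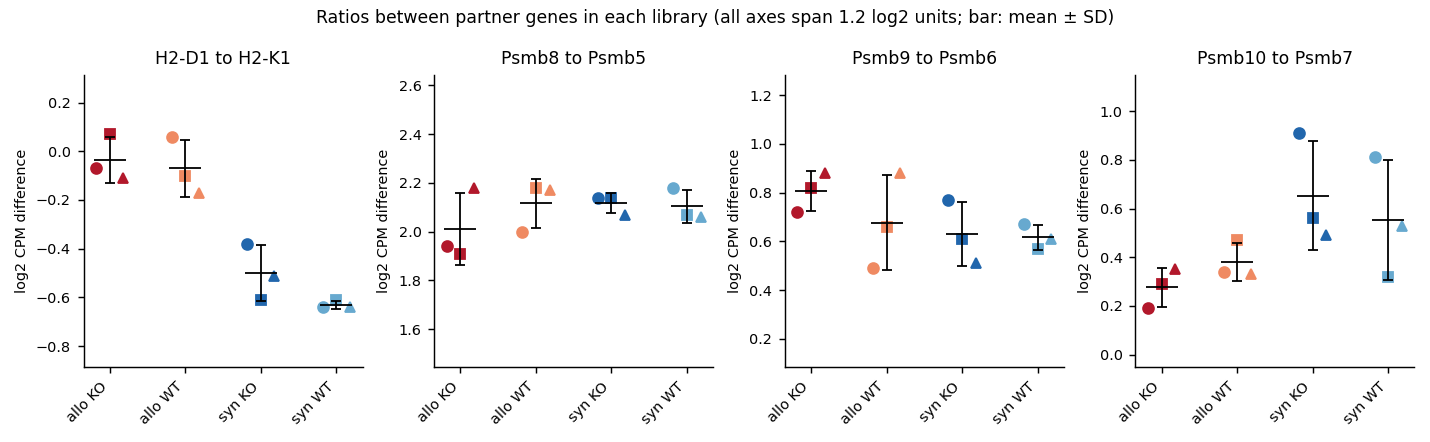
Log2 ratio (vertical axes, each spanning 1.2 log2 units) of H2-D1 to H2-K1 and of each immunosubunit to its constitutive partner in the libraries of allo KO, allo WT, syn KO and syn WT, with the mean ± SD. The H2-D1 to H2-K1 ratio is 0.889 to 1.05 in the 6 allogeneic and 0.644 to 0.766 in the 6 syngeneic libraries (linear values), and the Psmb8 to Psmb5 and Psmb9 to Psmb6 ratios overlap in all comparisons.

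Some members had extreme values in the libraries with an extreme index of short against long genes. Psmb9 was highest, at 250 CPM, in replicate 2 of allo KO, where the index was highest (0.692), and lowest, at 84.8 CPM, in replicate 2 of syn WT, where the index was lowest (−0.347). Nlrc5, whose principal transcript of 7578 bases is the longest of the members, was lowest in the library with the highest index. With the index as a covariate, a setting added after the data were seen, the members called between allo WT and syn WT were again Tap1 (0.55 ± 0.12, adjusted p = 0.00297), Tap2 (0.46 ± 0.13, adjusted p = 0.0119) and H2-D1 (0.47 ± 0.12, adjusted p = 0.00792, edgeR), where 35.0% of genes were called. Psmb8 (0.11), Psmb9 (0.15), H2-K1 (0.00) and Nlrc5 (−0.02) were then nearer to 0, and B2m (−0.13) and Psmb10 (−0.10) turned below 0. In KO none was called with it, where 31.4% of genes were (Tap1 0.29 ± 0.11, adjusted p = 0.0647). The index differs between the settings, so its part cannot be told apart from the setting's by this fit alone.

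**Figure D4:**
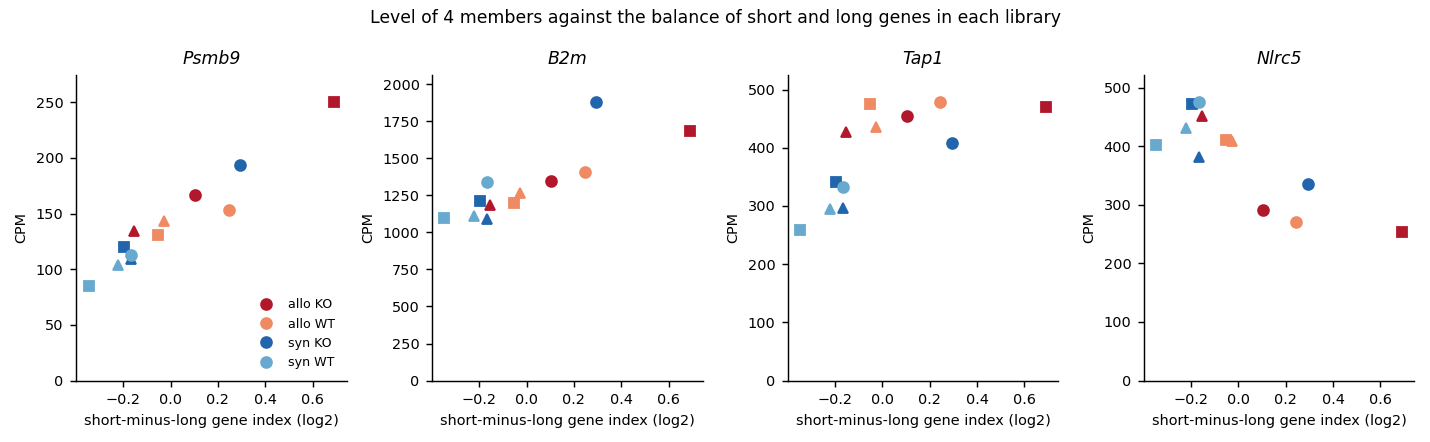
CPM (vertical axes, from 0) of Psmb9, B2m, Tap1 and Nlrc5 against the index of short minus long genes (log2, horizontal axis) in the 12 libraries, coloured by group, with the replicate shapes circle, square and triangle. Psmb9 runs from 84.8 CPM at the lowest index to 250 CPM at the highest, Nlrc5 is lowest at the highest index, and the allogeneic libraries of Tap1 lie between 427 and 478 CPM at every index.

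The rest of the pathway was read from lists that cover it by role. Interferon signalling and the known regulators of class I genes changed in both directions: of 27 genes, 8 rose and 4 fell between allo WT and syn WT, and 5 rose and 5 fell between allo KO and syn KO. Counts of this and the following lists stand beside 32.3% of all genes called in WT and 24.4% in KO, and nothing particular to a list is read from them. Ifng, the cytokine itself, had 39.9, 72.1 and 33.6 CPM in allo KO, 41.2, 35.4 and 40.1 CPM in allo WT, 24.7, 15.2 and 6.35 CPM in syn KO, and 9.29, 9.36 and 10.1 CPM in syn WT. It rose by 1.65 ± 0.40 in KO (adjusted p = 0.0122) and by 2.02 ± 0.41 in WT (adjusted p = 0.00333, edgeR), with no overlap. Its receptor chains moved apart. Ifngr1, the ligand-binding chain, rose by 1.2 ± 0.14 in KO and 1.33 ± 0.14 in WT (adjusted p = 1.53e-05 in WT), and Ifngr2, the signalling partner chain, had 1.57 to 2.88 CPM in allo KO, 3.23 to 4.01 CPM in allo WT, 10.7 to 13.7 CPM in syn KO and 15.0 to 17.3 CPM in syn WT. The fall of Ifngr2 was −2.43 ± 0.21 in KO and −2.20 ± 0.21 in WT (adjusted p = 6.37e-06 in WT, edgeR).

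Jak2, a kinase of the interferon gamma receptor, rose by 0.51 ± 0.11 in KO (adjusted p = 0.00353) and 0.67 ± 0.11 in WT (adjusted p = 0.000393), and Ifnar2, a chain of the type I interferon receptor, fell by 1.39 ± 0.11 in KO and 1.48 ± 0.11 in WT on the log2 scale (adjusted p = 8.67e-07 in WT, edgeR). Irf1, a transcription factor induced by interferon gamma, differed by −0.32 ± 0.20 in KO (adjusted p = 0.274) and −0.18 ± 0.20 in WT (adjusted p = 0.508).

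Of 14 loading and trimming genes, 3 rose and none fell in each genotype. Sec61a1, the channel of the endoplasmic reticulum translocon, rose by 0.53 ± 0.12 in KO (adjusted p = 0.00618) and 0.74 ± 0.12 in WT (adjusted p = 0.000527, edgeR). Lnpep, an endosomal aminopeptidase, rose by 0.45 ± 0.11 in KO (adjusted p = 0.0074) and 0.33 ± 0.11 in WT (adjusted p = 0.0279). Npepps, a cytosolic aminopeptidase, rose in KO (0.30 ± 0.09, adjusted p = 0.0339), and Bcap31, a chaperone of the endoplasmic reticulum membrane, in WT (0.79 ± 0.25, adjusted p = 0.0278, edgeR). Erap1, which trims peptides in the endoplasmic reticulum, differed by −0.09 ± 0.14 in KO and −0.06 ± 0.14 in WT, and Tapbpl, a peptide editor related to tapasin, by −0.03 ± 0.22 in KO and 0.29 ± 0.22 in WT. Neither was called.

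Among proteasome genes outside the members, 5 rose and 1 fell between allo WT and syn WT, and 2 rose between allo KO and syn KO. Of 18 genes of the 19S regulatory particle, Psmc1 (0.59 ± 0.16, adjusted p = 0.012), Psmd8 (0.81 ± 0.22, adjusted p = 0.014) and Psmd13 (0.73 ± 0.22, adjusted p = 0.0209) rose in WT, and Psmd13 in KO (0.69 ± 0.22, adjusted p = 0.0349, edgeR). Of 11 other 20S genes, Psmb3 rose in WT (0.77 ± 0.22, adjusted p = 0.0199). Of 9 activator and assembly genes, Pomp, an assembly chaperone, rose (0.63 ± 0.23, adjusted p = 0.0495) and Psme3, the activator of the nuclear proteasome, fell in WT (−0.43 ± 0.11, adjusted p = 0.0109), while Psme4, another nuclear activator, rose in KO (0.38 ± 0.12, adjusted p = 0.0405, edgeR). Psme1 and Psme2, the interferon-inducible activator that pairs with the immunoproteasome, differed in WT by 0.09 ± 0.27 and 0.18 ± 0.27 (adjusted p of 0.833 and 0.628) and in KO by −0.17 ± 0.27 and −0.08 ± 0.27.

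The other class I and class I-like heavy chains gave 1 rise and 3 falls of 16 tested genes between allo WT and syn WT and 2 falls between allo KO and syn KO. Fcgrt, the neonatal Fc receptor, fell by 1.5 ± 0.25 in KO (adjusted p = 0.000797) and 1.39 ± 0.25 in WT (adjusted p = 0.000994, edgeR) on the log2 scale. H2-Q2 rose in WT (0.73 ± 0.22, adjusted p = 0.0218), while H2-T24 (−0.65 ± 0.20, adjusted p = 0.0254) and Hfe, which regulates iron uptake (−1.09 ± 0.38, adjusted p = 0.043), fell. In KO, H2-Q4 fell (−0.54 ± 0.17, adjusted p = 0.0348). Some H2-Q and H2-T genes have close relatives within their families, and how reads were divided among them was not tested, so these values are uncertain. Between KO and WT the only call in these lists was Cd1d2, a CD1 lipid-presenting molecule, which had 0.844, 0.327 and 0.575 CPM in syn KO against 0.124, 0.0856 and 0.0511 CPM in syn WT and rose (2.70 ± 0.55, adjusted p = 0.0169, edgeR). It is a close copy of Cd1d1, so these low counts are uncertain. It lost this call without replicate 1 of syn KO (adjusted p = 0.0671), replicate 2 of syn WT (0.0928) or replicate 3 of syn WT (0.0987).

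Several calls of the last 3 groups were lost when 1 library was left out, often whichever of several it was. Over all genes, 5955 were called between allo WT and syn WT, and 4110 to 5380 without 1 library. In WT, those of Bcap31, H2-T24, Hfe, Lnpep, Pomp, Psmb3, Psmc1, Psmd8 and Psmd13 were lost without replicate 1 of allo WT (adjusted p up to 0.163), and those of Bcap31, H2-Q2, H2-T24, Hfe, Pomp, Psmb3, Psmc1, Psmd8 and Psmd13 without replicate 2 of syn WT (up to 0.159). Without replicate 3 of syn WT, Bcap31, H2-Q2, H2-T24, Hfe, Lnpep, Pomp, Psmb3 and Psmd13 were lost (up to 0.136). Those of H2-Q2, H2-T24, Hfe, Lnpep and Pomp were lost without replicate 2 of allo WT (up to 0.139). The same held for H2-Q2, Hfe, Lnpep and Pomp without replicate 3 of allo WT (up to 0.102), and for Pomp without replicate 1 of syn WT (0.0586). In KO, H2-Q4, Npepps, Psmd13 and Psme4 were lost without replicate 1 of allo KO, replicate 2 of syn KO or replicate 3 of syn KO (up to 0.136), H2-Q4 and Psmd13 without replicate 2 of allo KO (up to 0.117), Psme4 without replicate 3 of allo KO (0.117), and H2-Q4 and Psme4 without replicate 1 of syn KO (up to 0.0673). Sec61a1, Fcgrt, Psme3, Ifng, Ifngr1, Ifngr2, Ifnar2 and Jak2 kept theirs without any single library of the groups compared. In a fit of the 6 KO libraries alone, Ifng (adjusted p = 0.0658), H2-Q4 (0.109), Npepps (0.129), Psmd13 (0.0992) and Psme4 (0.13) were not called. With upper quartile scaling, Lnpep (0.055), Npepps (0.184) and Psme4 (0.217) lost their calls in KO, and Lnpep (0.167) and H2-Q2 (0.0509) in WT. Without the filter, Npepps (0.0828) and Psme4 (0.052) lost theirs in KO, and Hfe (0.0511) and Pomp (0.0598) in WT, and with the length index Hfe (0.121) did in WT.

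**Figure D5:**
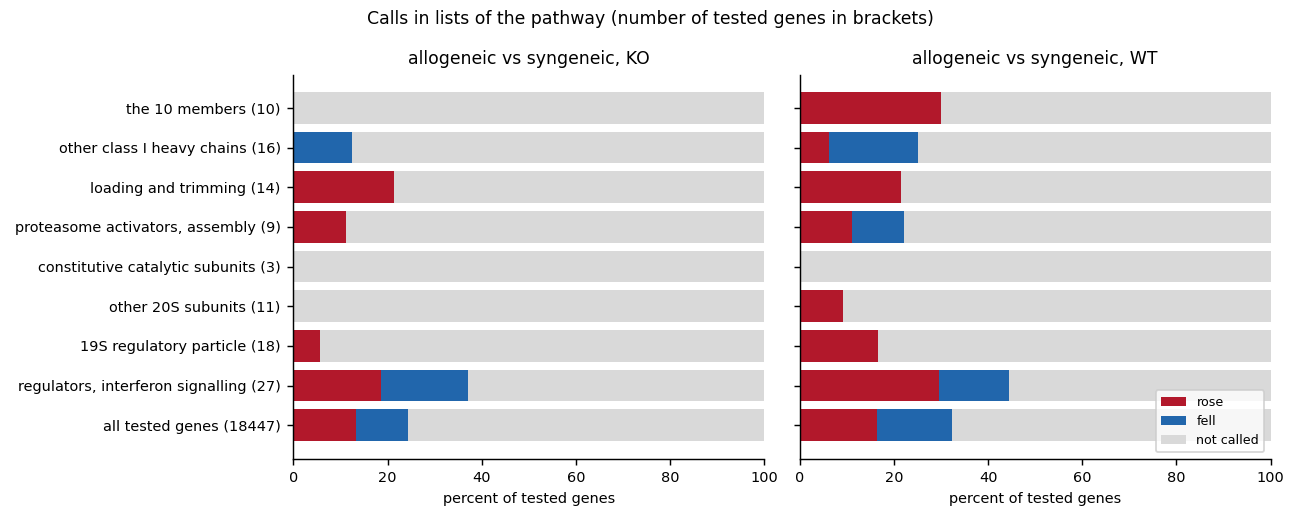
Percent of tested genes (horizontal axis, 0 to 100) that rose, fell or were not called between allo and syn in KO and in WT, for the members, 7 lists of the pathway and all tested genes, with the number of tested genes in brackets. In WT 3 of 10 members rose, and the regulators hold calls in both directions.

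The genes whose pattern over the 12 libraries was most like the median of the members were Uba1, Cnn2, Gpi1, Rp9, Thy1, Sin3b, Uck1 and Tpm3-rs7, chosen from 10042 genes of at least 5 CPM by the root mean square difference of centred log2(CPM + 0.5). Their differences were 0.0574 to 0.0756. Thy1, a surface protein of T cells, averaged 1382 CPM in allo KO, 1343 in allo WT, 1162 in syn KO and 927 in syn WT, the same order of groups as Uba1, the ubiquitin-activating enzyme (724, 672, 634 and 516 CPM). The members themselves lay at 0.101 for Tapbp to 0.194 for Psmb9 from their own median, and Nlrc5 at 0.512. They were not chosen by this difference. That the genes above lay nearer follows from their choice as the nearest of 10042. These figures describe likeness only, over libraries that share depth and the balance of short and long genes.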

How the data were processed

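RNA of sorted donor splenic T cells was sequenced from 12 transplant libraries in 4 groups of 3. Of 18 labelled samples, 6 naive ones are not analysed here, and 6 columns whose names matched no sample's labels were not used. The table that the authors deposited holds expected counts per gene, not normalized. 94.5 to 95.0% of them were whole, and they were rounded here. Libraries were made from 100 ng RNA with ribosomal RNA depletion, per the labels' protocols. TopHat2 2.0.13, Bowtie2 2.2.1, Cufflinks and Cuffdiff 2.2.1 and the build GRCm38 are named per the submitters' processing notes, while annotation and strandedness are not given in the sources used here. Symbols come from the table, and 45139 of 46073 IDs matched GENCODE M21.

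edgeR 4.0.16 (R 4.3.3) fitted 1 model with a mean per group over the 12 libraries (TMM scaling, count minimum 10, 18447 genes, robust quasi-likelihood F test with 8 residual degrees of freedom, Benjamini-Hochberg over all tested genes, threshold 0.05). "Called" means past it. The biological coefficient of variation was 0.249. Ratios were log2(CPM + 0.5) differences with exact permutation tests. Depth was 45965659 to 89007100 counts, so the number of libraries, not depth, limits precision for the members. The design calls the triplicates independent pools. Alternatives were RLE and upper quartile scaling, no filter, a replicate block, no ribosomal RNA genes, each pair of groups alone, each library left out, DESeq2 1.42.0 and, added after seeing the data, the length index and the comparison over both genotypes. Same-numbered syn KO and syn WT libraries deviated together (r = 0.187 to 0.588), but so did replicate 3 of syn KO and replicate 2 of syn WT (r = 0.463). The numbers are thus not shown to pair the samples, and the labels do not state it. The main model holds no block, and the replicate number was used only in alternatives. Same-numbered libraries of the other groups did not all deviate together (for example −0.199 to 0.29 in allo KO and allo WT). The fit was also run on simulated data with 200 changed genes and the same spread for all genes. These data held no outlying library and no shift between short and long genes, so the run does not cover either.

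All 10 members are named. From each pathway list, up to 4 called genes with the smallest p are named for the comparisons within KO, within WT and between KO and WT (the comparison over both genotypes is given for the members only), along with Ifng, Irf1, Psme1, Psme2, Erap1, Tapbpl and Psmb5 to Psmb7. The members and lists were chosen with earlier results of these data known. 1 gene that this rule names is not reported here.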

Additional observations from a re-analysis of the deposited data

How the results depend on the processing

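Most of the alternatives left the members' calls as they were. The number of members called between allo WT and syn WT was 3, where 32.3% of all genes were called. It was 6 with those 2 groups fitted alone, without the replicate block (43.9% of genes) or with it (40.6%). It was 2 to 3 without any 1 library (21.8 to 28.5% of genes). Between allo KO and syn KO it was 0 (24.4% of genes), but 2 with the replicate block (25.1%). There it was 1 without ribosomal RNA genes (25.3%), 2 by DESeq2 (25.6%) and 0 to 4 without any 1 library (16.1 to 28.6%). Between syn KO and syn WT it was 0 (3.37% of genes), and 1 with the replicate block within these groups (7.29%). The block changed no other call of a member except Tapbp between allo WT and syn WT, which it added. With the replicate block in the KO libraries alone, Jak2, Sec61a1, Lnpep, H2-Q4, Npepps, Psmd13 and Psme4 were not called (adjusted p of 0.0694 to 0.248, edgeR). Same-numbered libraries of allo KO and syn KO did not all deviate together (r = −0.472 to 0.516). With the block over all libraries, Psme4 (0.0533) in KO and Hfe (0.0534) in WT were not called. The cause of these differences was not tested, except that a fit of 2 groups has its own estimate of the spread.

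Of 84 fold changes, 20 changed sign under at least 1 alternative, giving 55 such values, none of them called. With the length index as covariate, allo KO minus allo WT was −0.02 for B2m, −0.15 for H2-D1, −0.11 for Psmb10, −0.01 for Psmb8 and −0.05 for Tap2. Syn KO minus syn WT was 0.05 for Nlrc5. Allo KO minus syn KO was −0.17 for B2m, −0.11 for Psmb8 and −0.08 for Tapbp, and allo WT minus syn WT was −0.13 for B2m, −0.10 for Psmb10, −0.31 for Psme1 and −0.21 for Psme2. Upper quartile scaling shifts the median of all genes by −0.11 between settings. It gave −0.04 for H2-D1 and −0.03 for Tap2 (allo KO minus allo WT), −0.09 for B2m and −0.09 for Tapbp (allo KO minus syn KO), and −0.02 for Psme1 (allo WT minus syn WT). Without the filter, H2-D1 and Tap2 stood at −0.01 (allo KO minus allo WT), as did H2-D1 with the block within these groups. For allo KO minus syn KO, Psmb10 was 0.04 with the replicate block, 0.02 with it within these groups, 0.02 without ribosomal RNA genes and 0.01 by DESeq2, and H2-K1 was 0.01 without ribosomal RNA genes.

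Leaving out 1 library gave these ranges. Allo KO minus allo WT ran from −0.04 to 0.23 for B2m, −0.18 to 0.14 for H2-D1, −0.16 to 0.06 for H2-K1, −0.41 to 0.02 for Nlrc5, −0.16 to 0.32 for Psmb10, −0.04 to 0.37 for Psmb8 and −0.04 to 0.06 for Tap2. Syn KO minus syn WT ran from −0.07 to 0.39 for B2m and −0.05 to 0.27 for H2-K1. Allo KO minus syn KO ran from −0.13 to 0.33 for B2m, −0.11 to 0.19 for H2-K1, −0.25 to 0.40 for Psmb10, −0.03 to 0.45 for Psmb8 and −0.12 to 0.24 for Tapbp. Allo WT minus syn WT ran from −0.14 to 0.02 for Erap1 and −0.04 to 0.23 for Psme1.

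The count of all genes called was 622 between syn KO and syn WT, against 1027 by DESeq2, 349 with these groups alone, 1287 with the block and 260 to 742 without 1 library. Between allo KO and allo WT it was 10, against 75 by DESeq2, 23 with the index, 6 with these groups alone and 3 to 15 without 1 library. Between allo KO and syn KO it was 4500, against 2669 with these groups alone and 2266 with the block. For the difference of the effects it was 88, against 296 by DESeq2 and 28 to 242 without 1 library.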
